A study of Drosophila melanogaster with 3 samples.

Results

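The genes of the cytosolic and the mitochondrial ribosome were compared between wounded and unwounded *Drosophila melanogaster* embryos. Members were taken by name: symbols that begin with RpL or RpS followed by a digit or P for the cytosolic ribosome, and with mRpL or mRpS followed by a digit for the mitochondrial ribosome. Among 8247 genes with 1 symbol and a value on every array, 98 were members, 35 cytosolic and 63 mitochondrial, read by 49 and 81 probes. The table of current gene names holds 92 cytosolic and 73 mitochondrial symbols of this form, so the cytosolic set was covered only in part. Each of these genes had a value on all 3 arrays (A, B and C), and no filter on low values was used. A further 14 probes carry the symbol of a ribosomal protein gene together with that of another gene and were not used, so *RpS27A*, *mRpL13* and *mRpL53*, read by such probes alone, are not members. The *mRpL13* probe had a mean log2 ratio of −0.20, below every mitochondrial member.

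Wild-type embryos were wounded by laser ablation and set against embryos that were not wounded, on 3 arrays with 2 colours. Unwounded RNA carried Cy3 and wounded RNA carried Cy5 on each array, so the dye and the wound cannot be told apart. The labels do not give the age of the embryos, the time after wounding and the number pooled. They name no separate collections either, so a p-value here covers only array-to-array spread, of which some or all may be technical. Values are log2 ratios of the colours, averaged over the probes of a gene. A high ratio is a value above 0. It likely means more transcript in wounded embryos, on the basis of the series title, which puts the wounded side first, and of the custom of dividing Cy5 by Cy3. The sample titles put the unwounded side first, and no label states the direction. If it runs the other way, high and low exchange throughout. A ratio carries no level, so the embryo label could not be checked against markers, and fewer cells of a type cannot be told apart from less RNA per cell.

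A cytosolic ribosome joins a small subunit, which reads the mRNA, to a large subunit, which forms the peptide bond. The proteins of these subunits are encoded in the nucleus by genes that are active in nearly every cell, and flies with a reduced dose of many of them show the Minute phenotype of slow development and thin bristles. Mitochondrial ribosomes have their own proteins, also encoded in the nucleus, and make a few subunits of the respiratory chain from mitochondrial mRNA. Several cytosolic proteins have a second gene copy in the fly that is expressed mainly in the germ line.

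Ribosomal protein genes lay close to a ratio of 1 in both sets, and no member differed past the threshold. At an adjusted p of 0.05 over all 8247 genes (limma), 0 of 35 cytosolic and 0 of 63 mitochondrial genes passed, against 1.96% of all genes. At an unadjusted p under 0.05, 4 cytosolic and 3 mitochondrial genes were found, together 7.14% of the members against 18.4% of all genes. Of these 7, 6 had a high ratio (8.75% of all genes) and 1 a low ratio (9.65% of all genes). The sign was the same on 3 arrays for 30 members, 30.6% against 41.5% of all genes. The mean log2 ratio was within 0.1 of 0 for 28 of 35 cytosolic and 55 of 63 mitochondrial genes, a share of 84.7% against 60.4% over all genes. A mean beyond 0.2 in size was found for 3 cytosolic and 2 mitochondrial genes, 5.10% of the members against 15.5% of all genes. The standard error of a member's mean had a median of 0.058 and ran from 0.053 to 0.14. Over all genes the smallest mean that passed was 0.34 for a high and −0.34 for a low ratio, and every member's mean was smaller than these, the largest being 0.31.

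The cytosolic set was narrowly spread and its median was near 0. Gene means ran from −0.20 to 0.31, with a median of −0.028, a mean of 0.0033 and a standard deviation over genes of 0.11, against 0.16 over all genes. Of the 35 means, 14 lay above 0, which is 40.0% against 49.9% of all genes.

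In the large subunit outside the stalk, *RpL23* and *RpL10Aa* were the genes with means beyond 0.2 in size, and the lowest mean was −0.13. *RpL23*, which encodes a protein of the face that meets the small subunit, had log2 ratios of 0.34, 0.27 and 0.26 on arrays A, B and C. These 3 values lay within 0.08 of each other, and their mean of 0.29 ± 0.04 (SD, n = 3) is a ratio of 1.22. This was the smallest adjusted p of any member, and it did not reach the threshold (limma adjusted p = 0.0663). With limma's array weights it passed (limma adjusted p = 0.0372), where 1.76% of all genes passed with a high ratio, and it was the sole member past an adjusted p of 0.10, where 1.94% did. *RpL23* was read by 1 probe, an RH clone, and without array A its limma adjusted p was 0.341, the highest over the settings run, and the lowest was that with array weights. RH clones had a median log2 ratio of 0.088 over all probes with 1 symbol. With each library centred on its median, *RpL23* was at 0.22 (limma adjusted p = 0.127).

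*RpL10Aa*, a gene copy of *RpL10Ab*, had log2 ratios of 0.17, 0.20 and 0.39 on arrays A, B and C, a mean of 0.26 ± 0.12 (SD, n = 3; limma adjusted p = 0.128). *RpL10Ab*, which encodes the broadly expressed form of the same protein, had 0.08, −0.12 and −0.04 (limma adjusted p = 0.851). On each array the copy lay above the main gene, with 1 probe for each. On array A, unused probes that carry the symbols of *RpL10Ab* and another gene were at 0.19 and 0.08. With each clone library centred, *RpL10Aa* was at 0.20 (limma adjusted p = 0.203). The difference within the pair was not tested, and cDNA probes can read transcripts of a near-identical copy, so values of gene copies are uncertain.

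*RpL7-like*, whose yeast relative helps to assemble the large subunit, had log2 ratios of 0.17, 0.15 and −0.03 on arrays A, B and C, and was read by clones at 0.015 and 0.18. *RpL40*, which is made as a fusion with ubiquitin, had 0.22, 0.00 and 0.00. *RpL3*, which encodes a protein next to the site of peptide bond formation, had 0.16, 0.08 and −0.03. The mean of each of these 3 genes was below 0.10, and none passed (limma adjusted p of 0.494, 0.617 and 0.590).

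At the low end of the large subunit, *RpL29* had log2 ratios of −0.25, −0.01 and −0.14 on arrays A, B and C, a mean of −0.13 ± 0.12 (SD, n = 3; limma adjusted p = 0.360). Its probes disagreed on arrays A and B, where an RE clone was at −0.50 and 0.19 and an RH clone at 0.0072 and −0.21. *RpL37A* had 0.06, −0.22 and −0.18, and its clones were at −0.09 and −0.14, with array A above 0 and arrays B and C below 0 for both. *RpL27* had −0.03, −0.12 and −0.18, negative on every array, with a mean of −0.11 ± 0.08 (SD, n = 3; limma adjusted p = 0.370). Over the 18 large-subunit genes outside the stalk the median of the means was −0.0023, with 9 above and 9 below 0.

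The stalk is the flexible arm of the large subunit that recruits elongation factors. *RpLP0*, which encodes its base, had log2 ratios of 0.05, −0.05 and −0.12 on arrays A, B and C. *RpLP0-like*, whose yeast relative is an assembly factor that occupies the place of that base before the ribosome is complete, had −0.24, −0.13 and −0.21, a mean of −0.20 ± 0.06 (SD, n = 3). It was the lowest mean of the cytosolic set and negative on every array, but did not pass (limma adjusted p = 0.154). The means of the 4 genes with an RpLP symbol, this one included, lay below 0, with a median of −0.048.

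**Figure D1:**
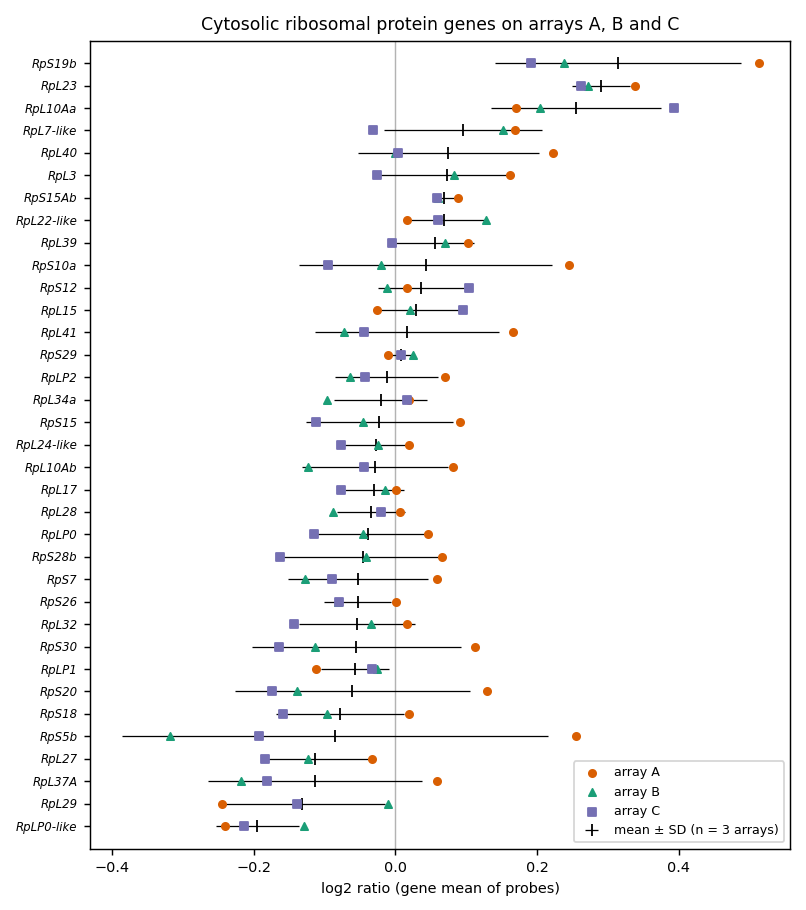
Log2 ratio on the x axis for each of the 35 cytosolic ribosomal protein genes on the y axis, ordered by mean; coloured symbols are arrays A, B and C, and the black tick and line are the mean ± SD over 3 arrays. Most means sit within 0.1 of 0, *RpS19b*, *RpL23* and *RpL10Aa* stand above the others, and the symbol of array A lies to the right of the other 2 in 27 rows.

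Small-subunit genes had a median of −0.046 over 13 genes, with 5 means above 0. *RpS19b*, a germ-line copy of the *RpS19* gene pair, had log2 ratios of 0.51, 0.24 and 0.19 on arrays A, B and C. Its values were positive throughout and array A was the highest, and the mean of 0.31 ± 0.17 (SD, n = 3), a ratio of 1.24, was the highest of all 98 members (limma adjusted p = 0.122). *RpS5b*, an ovary-enriched copy, had 0.25, −0.32 and −0.19, the largest range between arrays in the cytosolic set at 0.57. Its mean of −0.09 ± 0.30 (SD, n = 3) has a sign that turns without array B (0.031). *RpS10a*, a gene copy, had 0.24, −0.02 and −0.10. *RpS20* had 0.13, −0.14 and −0.17, and *RpS18* had 0.02, −0.10 and −0.16. In *RpS5b*, *RpS10a*, *RpS20* and *RpS18* array A lay above 0 and arrays B and C below it.

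The mitochondrial set was also centred near 0. Its gene means ran from −0.18 to 0.28, with a median of −0.0048, a mean of 0.013 and a standard deviation over genes of 0.085. Of the 63 means, 30 lay above 0. Without array B the median turned to 0.013. The 43 large-subunit genes had a median of −0.0087 and a standard deviation of 0.066, and the 20 small-subunit genes had a median of 0.0083 and a standard deviation of 0.12. None of the large-subunit genes had an unadjusted p under 0.05 and 3 of the 20 small-subunit genes did, 15.0% against 18.4% of all genes. All 3 had a high ratio, which 8.75% of all genes had at that p.

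These 3 genes were *mRpS24*, *mRpS6* and *mRpS7*. *mRpS7*, which encodes a protein of the head of the small subunit, had log2 ratios of 0.21, 0.15 and 0.20 on arrays A, B and C. The arrays lay within 0.06 of each other, with a mean of 0.19 ± 0.03 (SD, n = 3; limma adjusted p = 0.149), from 1 probe. *mRpS6* had 0.40, 0.10 and 0.30, a mean of 0.27 ± 0.15 (SD, n = 3; limma adjusted p = 0.147). Its 2 clones differed, with means of 0.43 for RE10976 and 0.10 for RH10862. *mRpS24* had 0.37, 0.41 and 0.05, a mean of 0.28 ± 0.20 (SD, n = 3; limma adjusted p = 0.175). Both of its spots come from clone RH54711, and the first spot was at 0.44 while the spot of the re-amplified clone was at 0.12. For *mRpS6* and *mRpS24*, a single spot carried most of the mean. With each clone library centred, *mRpS24* was at 0.20 (limma adjusted p = 0.273) and *mRpS6* at 0.23 (limma adjusted p = 0.201).

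Some mitochondrial genes were high on a single array or a pair. *mRpL23*, whose bacterial relative lines the exit of the peptide tunnel, had log2 ratios of 0.64, −0.01 and −0.05 on arrays A, B and C. Its range of 0.69 was the largest of any member, and without array A its mean turned to −0.030. *mRpS34*, a protein with no bacterial relative, had 0.39, 0.36 and −0.17. Its spots, both from clone RH64455, differed on array C, at 0.08 for the first and −0.42 for the re-amplified clone. *mRpL51*, also particular to mitochondria, had 0.08, 0.43 and −0.08. None of the 3 passed (limma adjusted p of 0.534, 0.460 and 0.524).

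At the low end, *mRpL43* had log2 ratios of −0.07, −0.02 and −0.44 on arrays A, B and C, so array C set its mean of −0.18 ± 0.23 (SD, n = 3; limma adjusted p = 0.389). *mRpS16* had −0.05, −0.35 and −0.10, with array B the lowest. *mRpL3*, the counterpart of *RpL3*, had −0.14, −0.06 and −0.09, a mean of −0.098 ± 0.042 (SD, n = 3). *mRpL10*, which encodes the base of the mitochondrial stalk, had −0.09, −0.12 and −0.07, and *mRpS31* had −0.05, −0.06 and −0.12. *mRpL42* had 0.02, −0.20 and −0.04. *mRpL3*, *mRpL10* and *mRpS31* were negative on every array by small amounts, and none of these 6 genes passed (limma adjusted p from 0.325 to 0.606).

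**Figure D2:**
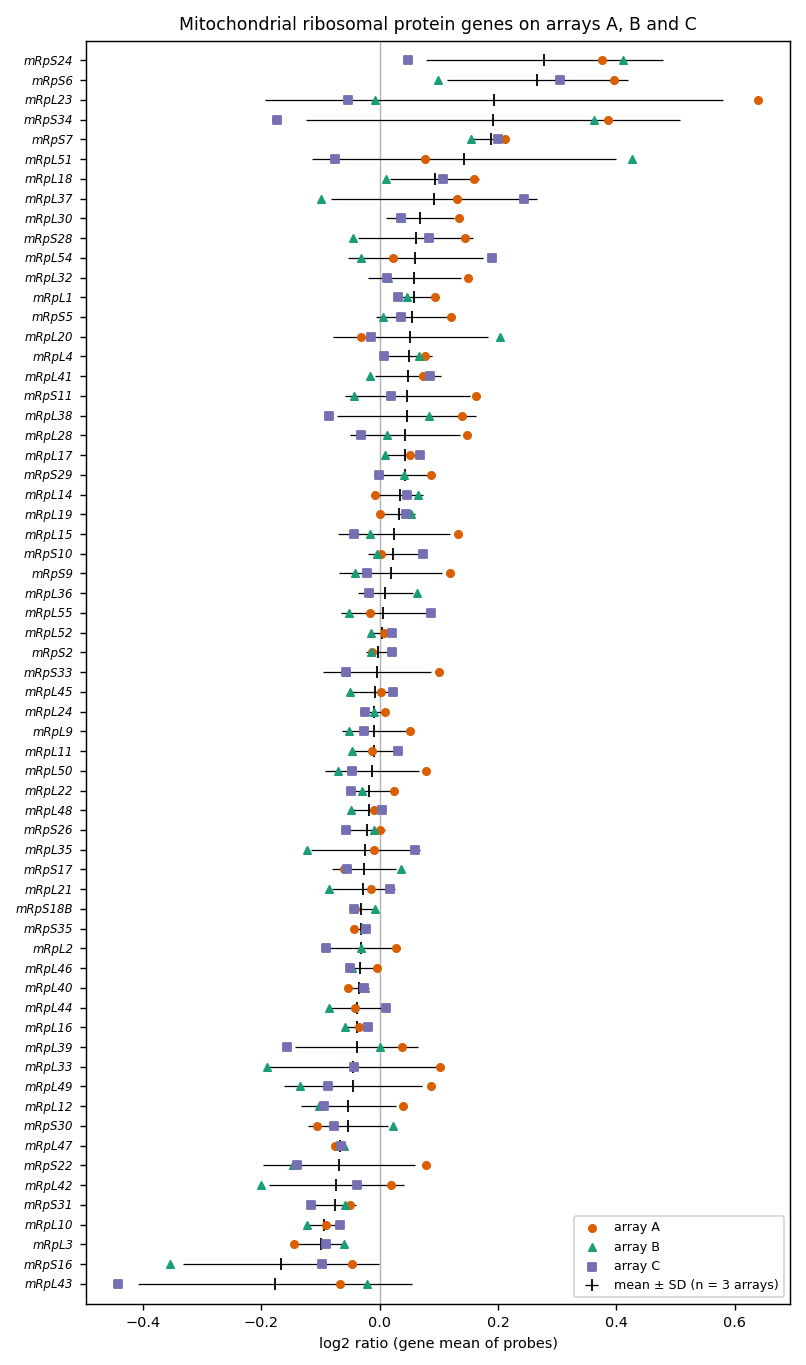
Log2 ratio on the x axis for each of the 63 mitochondrial ribosomal protein genes on the y axis, ordered by mean; coloured symbols are arrays A, B and C, and the black tick and line are the mean ± SD over 3 arrays. The bulk of the genes lies within 0.1 of 0, and the genes with the widest lines, such as *mRpL23* with a range of 0.69, have 1 array apart from the other 2.

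Set against each other, the sets did not separate. The cytosolic median minus the mitochondrial median was −0.023 over gene means. By array, it was 0.035 on A, −0.013 on B and −0.024 on C, a standard deviation of 0.031 that exceeds the difference. Without array C the difference was 8.0e-04. An exact sign-flip test over 3 arrays cannot give a p below 0.25, so no test of this difference was made. Within clone libraries that held at least 3 probes of both sets, the difference was −0.010 for LD, −0.012 for RE and −0.077 for RH clones.

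**Figure D3:**
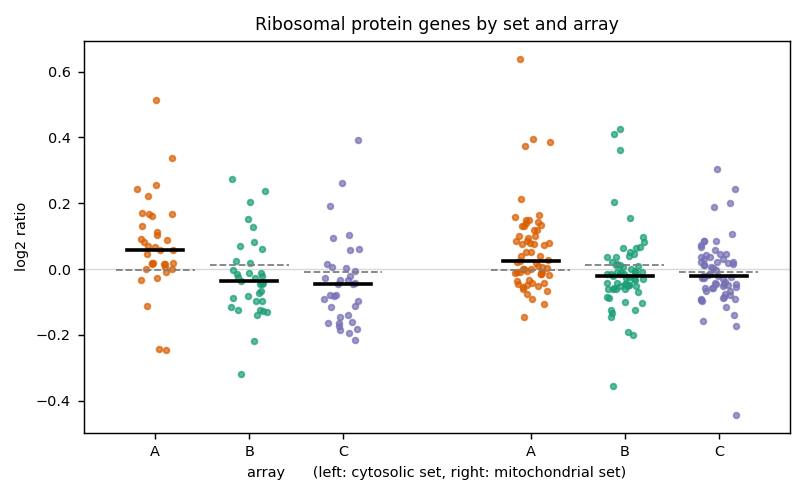
Log2 ratio on the y axis for each gene (points) by array, with the 35 cytosolic genes on the left and the 63 mitochondrial genes on the right; solid bars are the medians of the set and dashed bars the medians of all 8247 genes. The cytosolic median is at 0.059 on array A and at −0.035 and −0.045 on arrays B and C, and the mitochondrial medians are at 0.024, −0.022 and −0.021.

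Cytosolic genes tended to have their highest ratio on array A, a pattern chosen after the values were seen. Of the 35 cytosolic genes, 29 lay above 0 on array A, but 10 on array B and 10 on array C. Over all genes the shares above 0 were 48.9%, 53.0% and 47.9% on arrays A, B and C. Of the 63 mitochondrial genes, 39, 22 and 27 lay above 0. Array A gave the highest of the 3 values for 27 cytosolic genes, 77.1%, and for 33 mitochondrial genes, 52.4%, against 28.1% of all genes. The median of array A minus the mean of the other 2 was 0.11 for cytosolic genes, 0.041 for mitochondrial genes and −0.0038 for all genes. In the cytosolic small subunit it was 0.17, with array A highest for 11 of 13 genes. With each array centred, with quantile normalization and with clone libraries centred, 25 or 26 cytosolic genes still had array A highest. Within RE clones array A was highest for 15 of 19 cytosolic probes and 32.3% of all probes, and within RH clones for 12 of 15 and 39.3%. Within LD clones it was highest for 3 of 7 cytosolic probes and 20.4% of all probes. Among mitochondrial probes, array A was highest for 21 of 36 from RE, 10 of 17 from RH and 6 of 12 from LD clones. The cytosolic share was thus above the mitochondrial share within RE and RH clones, but not within LD clones. The members share their arrays, dyes and, in part, sequence, so they are not independent, and no test was made.

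Arrays B and C gave closely similar orders of the cytosolic genes, in a comparison that was not planned. Over these 35 genes, which are not independent replicates, Pearson r between arrays B and C was 0.80 and Spearman rho 0.77, while over the 63 mitochondrial genes r was 0.086 and rho 0.24. Over all 8247 genes r was 0.21 and rho 0.22. For the lists of other translation genes, in the order given below, r was 0.64, 0.60, 0.58, 0.43 and −0.19. The matching rho was 0.25, 0.17, 0.45, 0.34 and 0.081. With *RpS19b*, *RpL23* and *RpL10Aa* left out, r over the other 32 cytosolic genes was 0.64 and rho 0.69. Between arrays A and B the cytosolic r was 0.38, and between A and C it was 0.43, against 0.36 and 0.50 over all genes. The median gap between arrays B and C was 0.066 for cytosolic, 0.056 for mitochondrial and 0.13 for all genes, and the standard deviation over genes was 0.122 and 0.133 on arrays B and C for cytosolic genes and 0.123 and 0.104 for mitochondrial genes.

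**Figure D4:**
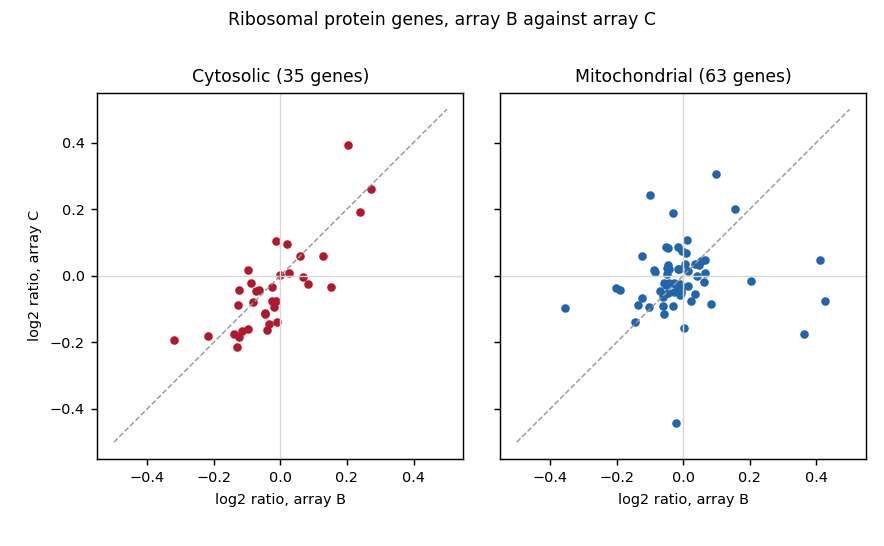
Log2 ratio on array B (x axis) against array C (y axis), 1 point per gene, for 35 cytosolic genes (left) and 63 mitochondrial genes (right); the dashed line marks equal values. Cytosolic genes follow the line (r = 0.80), and mitochondrial genes form a cluster near 0 with a few genes high or low on 1 array (r = 0.086).

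Several probes of a gene mostly gave like values. Of the 98 members, 30 had more than 1 spot, and the gap between the lowest and highest spot mean had a median of 0.061 on the log2 scale. For 23 genes it was under 0.1, and it exceeded 0.3 for *mRpS6* and *mRpS24* alone. Spots could differ more on a single array. *RpL29* is among these 23 genes, with clones at −0.50 and 0.0072 on array A. On array B the same clones were at 0.19 and −0.21. No probe of a member passed when probes with 1 symbol were tested in place of genes, where 0.925% of probes passed.

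Other genes of translation were read from lists. Of 30 measured initiation and elongation factors, 1 passed with a low ratio (1.47% of all genes) and 0 with a high ratio (0.497% of all genes). An unadjusted p under 0.05 was found for 2, which is 6.67% against 18.4% of all genes. The gene that passed was *eIF4E3*, a testis form of the cap-binding protein, with log2 ratios of −0.39, −0.41 and −0.50 on arrays A, B and C, a mean of −0.43 ± 0.06 (SD, n = 3; limma adjusted p = 0.0385). The list median was −0.0092, against −1.7e-04 over all genes, and array A was highest for 8 of 30 genes. Among 17 cytosolic aminoacyl-tRNA synthetases, which charge tRNAs, 0 passed, with 2 at an unadjusted p under 0.05, 11.8% against 18.4% of all genes. *ValRS* had a mean of 0.24 (limma adjusted p = 0.101) and *ArgRS* −0.24 (limma adjusted p = 0.147). The list median was −0.082, with 3 of 17 means above 0, against 49.9% of all genes. On array B its median was 0.019, with 10 of 17 genes above 0, against −0.091 on array A and −0.16 on array C.

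In the list of mitochondrial translation, 0 of 24 genes passed, with 2 at an unadjusted p under 0.05 (8.33%) and a median of 0.021. It holds *tko*, which encodes a small-subunit protein of the mitochondrial ribosome under an older name and is therefore outside the name rule. *tko* had log2 ratios of 0.24, 0.36 and 0.30 on arrays A, B and C, a mean of 0.30 ± 0.06 (SD, n = 3; limma adjusted p = 0.0669), above every mitochondrial member. *bonsai*, in the same list, is likewise a small-subunit protein gene of that ribosome outside the name rule. It had 0.06, −0.02 and 0.06, a mean of 0.032 (limma adjusted p = 0.799). *AsnRS-m*, a mitochondrial synthetase, had a mean of 0.15 (limma adjusted p = 0.223).

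Of 37 genes of ribosome biogenesis and RNA polymerase I, 1 passed with a high ratio and 0 with a low ratio. *Rrp46*, a subunit of the exosome that trims rRNA precursors, had log2 ratios of 0.35, 0.42 and 0.35 on arrays A, B and C, a mean of 0.38 ± 0.04 (SD, n = 3; limma adjusted p = 0.0430). Most means of the list lay on the other side of 0, with 9 of 37 means above 0 and a median of −0.063. At an unadjusted p under 0.05, 9 of the 37 genes were found, 24.3% of the list against 18.4% of all genes. Of these 9, 8 had a low ratio (9.65% of all genes) and 1 a high ratio (8.75% of all genes). On array A the list median was −0.18, against 0.045 on array B and −0.086 on array C. Array A gave the lowest of the 3 values for 27 of these 37 genes, against 31.2% of all genes, and the highest for 1. The medians of cytosolic ribosomal protein genes and of ribosome biogenesis genes thus lay on opposite sides of 0 on array A. On array B they did so in the reverse order (−0.035 and 0.045), and on array C both lay below 0 (−0.045 and −0.086). Of 22 measured regulators of growth and translation, 0 passed, with 3 at an unadjusted p under 0.05 (13.6%) and a median of 0.046. The kinase gene *S6k*, whose product phosphorylates ribosomal protein S6, had a mean of 0.19 (limma adjusted p = 0.173), and *S6kII* had 0.19 (limma adjusted p = 0.240). Over all genes, 0.497% passed with a high and 1.47% with a low ratio. With array A, B or C left out, none of the 8247 genes passed in limma, *eIF4E3* and *Rrp46* included, and 877, 1663 and 1268 genes had an unadjusted p under 0.05. None passed either on the linear ratio or with each clone library centred, with 1511 and 1510 genes at an unadjusted p under 0.05.

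**Figure D5:**
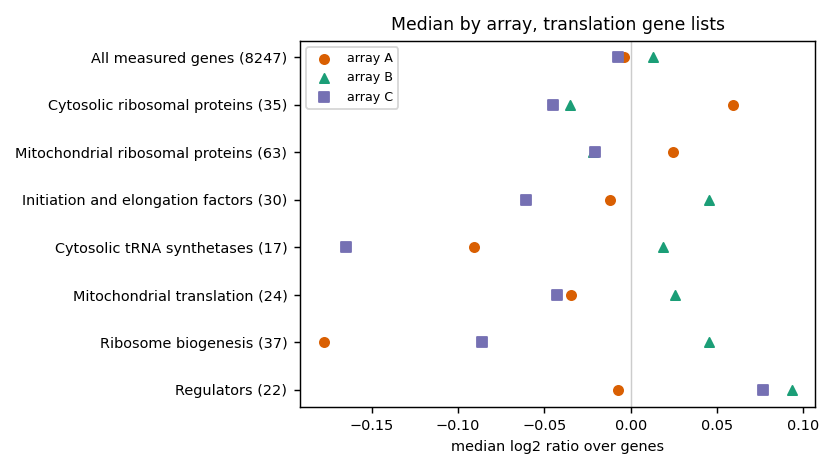
Median log2 ratio over the genes of a list (x axis) on arrays A, B and C (symbols), with the number of measured genes in parentheses. Cytosolic ribosomal proteins are at 0.059 on array A and ribosome biogenesis genes at −0.18, and all measured genes lie within 0.02 of 0 on each array. On array B, cytosolic ribosomal proteins are at −0.035 and ribosome biogenesis genes at 0.045.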

How the data were processed

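Per the labels, Trizol and an RNeasy cleanup gave the total RNA, and amino-allyl reverse transcription the labelled cDNA. The deposited table holds 1 value per probe and array, all negative, with medians of −1.001, −1.01 and −0.997. The deposited values were read as minus a linear ratio of the colours, centred by the authors near 1 with a floor of 0.01. Scale and centring are inferred and the direction is unknown. The labels and the file name neither a scanner nor a normalization method. No intensities were used, so signal over background is unknown.

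Log2 of minus the value was taken. Of 12144 rows, 160 control spots were left out, and 9839 probes with 1 symbol and 3 values gave 8247 gene means. Control spots named for plant genes had median log2 ratios of −0.35, −0.22 and −0.16 on arrays A, B and C. The source of this offset was not tested. Symbols came from the platform annotation, and the members' were updated by Entrez identifier through a RefSeq gene table (Release 6 plus ISO1 MT). Gene means were fitted with an intercept in limma 3.58.1 (R 4.3.3; eBayes), and p-values were adjusted over all genes by Benjamini-Hochberg, with a threshold of 0.05. The procedure was tested on simulated data. The number of arrays limits the precision.

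Members, lists and rules were chosen with earlier results of these data known. Named members are the 6 highest and 6 lowest means and the 4 largest ranges between arrays of each set, pairs of gene copies, and genes whose probes differ by over 0.3. From each other list, genes past the threshold are named, or otherwise the 2 of smallest p. *tko* and *RpL23* also mark single results, and *bonsai* is named beside *tko* as a gene of the same kind. Alternatives covered normalization, weights, probe summary, clone libraries, threshold and each array left out.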

Additional observations from a re-analysis of the deposited data

How the results depend on the processing

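Across normalization, moderation, probe summary, missing values, the linear scale, centred clone libraries, probes in place of genes and each array left out, no member passed at an adjusted p of 0.05 in limma. Array weights gave 1 high cytosolic gene (*RpL23*), where 1.76% of all genes passed with a high ratio, and an adjusted p of 0.10 also gave 1 high cytosolic gene (*RpL23*), where 1.94% did. The smallest adjusted p among members was 0.336, 0.0971 and 0.0970 without arrays A, B and C, when no gene on the arrays passed either. On the linear ratio and with clone libraries centred no gene passed at all, so members could not be set apart there. The difference of the set medians moved beyond its spread over arrays within RH clones (−0.077) and stayed within it in all other settings run. The set medians stayed within their spread over arrays in every setting run, and the mitochondrial median turned positive without array B (0.013) and without genes read by a single probe (0.012). The means of some named genes changed sign. *RpS5b* was at 0.031 without array B and 0.017 with array weights, and ran from −0.26 to 0.031 with an array left out. *RpS10a* ran from −0.058 to 0.11, *mRpL23* from −0.030 to 0.32, *RpL10Ab* from −0.084 to 0.019 with 0.0070 under array weights, and *RpLP0* from −0.081 to 5.8e-06. Averaging spots of a clone, the count of genes highest on array A and the left-out gene copies in the difference were chosen after seeing the data. The correlations between arrays were not planned either. Signal over background, which limits dim probes, is unknown here.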
